A study of Homo sapiens with 6 samples.

Results

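Untreated U2OS cells were compared with U2OS cells exposed to adriamycin, with 2 RNA-Seq libraries in each group, over every gene that has a complete line in all of the count tables. This gave 220 genes of a list of 67140, which is 0.328% of the list, and all 220 lie near the end of the short arm of chromosome 1, between bases 12010 and 4594016 of GRCh38. Beyond these, the gene lists of those libraries were not used here. U2OS is an established human osteosarcoma line, and its genotype is labelled WT in all libraries. The control cells received no treatment, and the adriamycin group was given the drug at 1.5 μg/ml and collected after 4 h. The 2 libraries of cells given 100 μM etoposide for 4 h entered the fit for the estimate of spread and are not described for their own sake. The paper's legends call replicates technical and its reporting summary speaks of duplicates. A supplementary legend on Hi-C uses the same word for cells that were cultured independently, and whether this holds for the RNA-Seq libraries is not stated. The p-values therefore measure the spread between these libraries of 1 cell line, which may be technical.

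Adriamycin, also named doxorubicin, is an anthracycline that inserts itself between DNA base pairs and poisons topoisomerase II, the enzyme that passes one DNA duplex through a transient break in another. Etoposide poisons the same enzyme without binding DNA in this way. Messenger RNA levels after a few hours of a DNA-binding drug reflect both new transcription and the decay of transcripts already present, and short-lived transcripts follow changes in transcription soonest. In bulk RNA, fewer cells that carry a transcript and less of the transcript per cell cannot be told apart.

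Summed over the 220 genes, counts were 89343 and 63941 in control cells and 79753 and 59357 after adriamycin, and these sums are not sequencing depths. Of the 220 genes, 162 had a count in at least 1 of the 4 libraries, and 94 passed the filter on low counts and were tested. The labels give the tissue as bone and the cell type as epithelial. Cell type markers lie outside the analysed stretch and were looked up in the etoposide libraries, where COL1A1 reached 3463 and 3624 CPM (counts scaled to the library total), SPARC 1153 and 1113, and VIM 855 and 786. The other mesenchymal and osteoblast markers were low or near 0, with ALPL at 10.0 and 9.20 CPM, RUNX2 at 4.71 and 4.84, COL1A2 at 0.23 and 0.14, SP7 at 0.23 and 0.21, BGLAP at 0.37 and 0.14, and IBSP with 2 counts and 0. Of the epithelial markers, CLDN4 stood at 28.7 and 25.0 CPM and EPCAM at 13.7 and 11.9, above those low osteoblast markers, while CDH1, ESRP1, KRT5 and KRT19 were at most at 1.47 CPM.

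After adriamycin, 36 of the 94 tested genes (38.3%) passed an adjusted p under 0.01, with 18 higher (19.1%) and 18 lower (19.1%), and "rose" and "fell" below refer only to these. Counts by gene list or RNA class below are to be read against these shares. The changes were unequal in size. The 18 genes that rose did so by 0.27 to 1.06 on the log2 scale, with a median of 0.47, and the 18 that fell changed by −2.48 to −0.36, with a median of −0.91. Past 1 on the log2 scale were 8 genes (8.51% of the 94 tested), of which 1 rose (1.06%) and 7 fell (7.45%). The genes that rose had high counts, with a median of 1249 normalized counts in control cells (counts divided by the relative library size after scaling). The median was 284 for the genes that fell and 167 for all tested genes. Standard errors were larger at low counts, so a small change could pass more readily in a gene with many counts. INTS11 passed at 0.27 ± 0.09 (SE), while CDK11A, with fewer counts, did not pass at 0.56 ± 0.36. In all 36 the libraries of the groups did not overlap, but neither did those of 31 tested genes on the higher side (33%) and 40 on the lower side (42.6%), whether or not they passed. The split depends on the scaling. It was 19 higher and 13 lower with DESeq2's size factors, 23 and 12 with upper-quartile scaling, and 3 and 27 with library size alone, and over all 94 tested genes the median log2 fold change was −0.07 under TMM (edgeR's trimmed-mean scaling, used throughout) and 0.02, 0.12 and −0.29 under these.

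**Figure D1:**
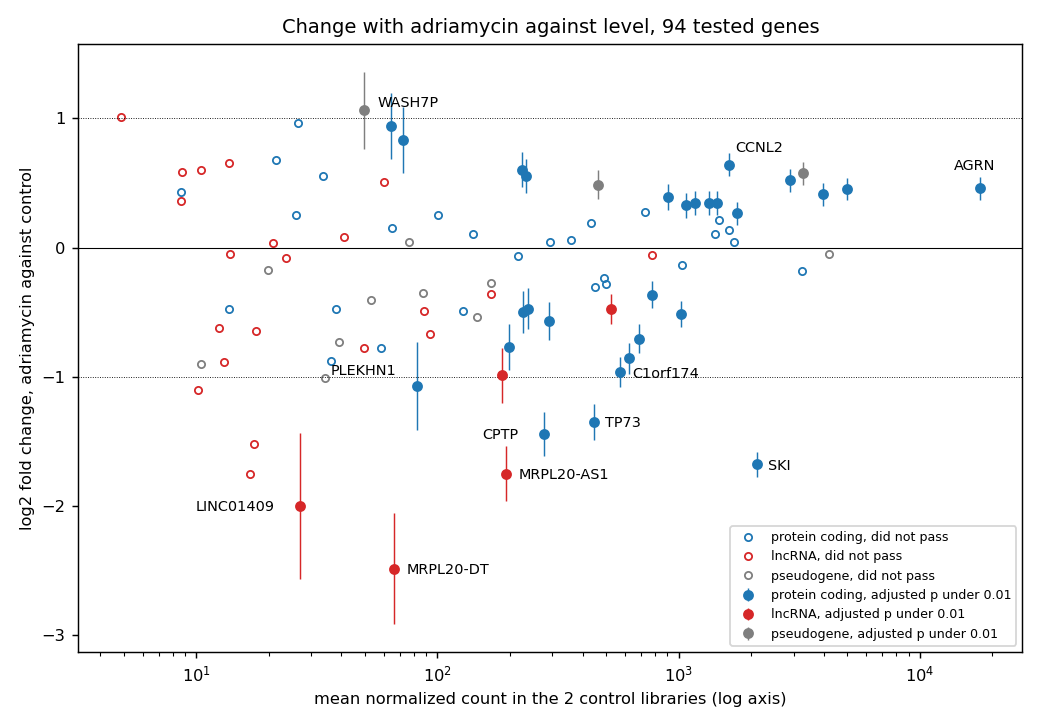
Each point is 1 of the 94 tested genes, with its mean normalized count in the 2 control libraries (log axis) against its log2 fold change with adriamycin, coloured by RNA class and filled where adjusted p was under 0.01 (bars, standard error). The filled points above 0 lie mostly at high levels and under 1 on the log2 scale. SKI, at 2112 normalized counts, stands far below the other highly counted genes.

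Among the gene lists, transcription regulators had the lowest median log2 fold change, −0.79 over 6 tested genes against −0.07 over all tested genes. Of the 6, SKI, TP73 and SAMD11 fell, NOC2L rose, and PRDM16 and PERM1 did not pass. SKI (ENSG00000157933) is a co-repressor that restrains SMAD proteins in TGF-β signalling. It lies on the plus strand at chr1:2227388-2310213. Its normalized counts were 2141 and 2082 in the control libraries and 659 and 665 in the adriamycin libraries. The libraries of each group were nearly equal, and adriamycin-treated cells held 31.3% of the control level. The log2 fold change was −1.67 ± 0.10 (SE), and its adjusted p of 7.66e-33 (edgeR quasi-likelihood, Benjamini-Hochberg) was the smallest of all tested genes.

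TP73 (ENSG00000078900) encodes p73, a transcription factor of the p53 family, and lies on the plus strand at chr1:3652516-3736201. Its libraries stood at 441 and 454 normalized counts in control cells and at 174.1 and 177.4 after adriamycin, so 39.3% of the control level remained (log2 fold change −1.35 ± 0.14, SE). SAMD11, a SAM domain protein known from the photoreceptor, had 714 and 653 normalized counts in control cells and 429 and 409 with adriamycin. The groups did not overlap, as for 42.6% of all tested genes on the lower side, and the log2 fold change was −0.71 ± 0.11 (SE). NOC2L, a nucleolar protein that also inhibits histone acetyltransferases, moved the other way, from 4073 and 3900 to 5654 and 4959 normalized counts (log2 fold change 0.41 ± 0.09, SE). PERM1, a regulator of muscle metabolism, was scarce and stood at −0.88 ± 0.44 (SE), and PRDM16, a zinc finger regulator of brown fat fate, stood at 0.25 ± 0.25 (SE).

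In the list of enzymes and lipid transfer proteins all 4 tested members passed, against 38.3% of all tested genes. Of the 4 members 3 fell and 1 rose, and the median was −0.71. CPTP (ENSG00000224051, chr1:1324756-1328896) carries ceramide-1-phosphate between membranes. Its libraries differed within each group, at 306 and 245 normalized counts in control cells and 116 and 86.6 after adriamycin, yet the groups were far apart, and the log2 fold change was −1.44 ± 0.17 (SE). PRXL2B, a prostamide and prostaglandin F synthase, fell from 622 ± 10.5 to 341 ± 55.8 normalized counts (SD, n = 2 each). PANK4, a member of the pantothenate kinase family, fell to 67.4% of the control level, with 237 and 151 normalized counts in the adriamycin libraries. Its log2 fold change of −0.57 was −0.89 without adriamycin replicate 1 and −0.28 without adriamycin replicate 2, where it did not pass, and it passed in 5 of 14 alternative settings. NADK, which phosphorylates NAD to NADP, was the member that rose, from 1070 ± 9.22 to 1340 ± 121 normalized counts (SD, n = 2 each).

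**Figure D2:**
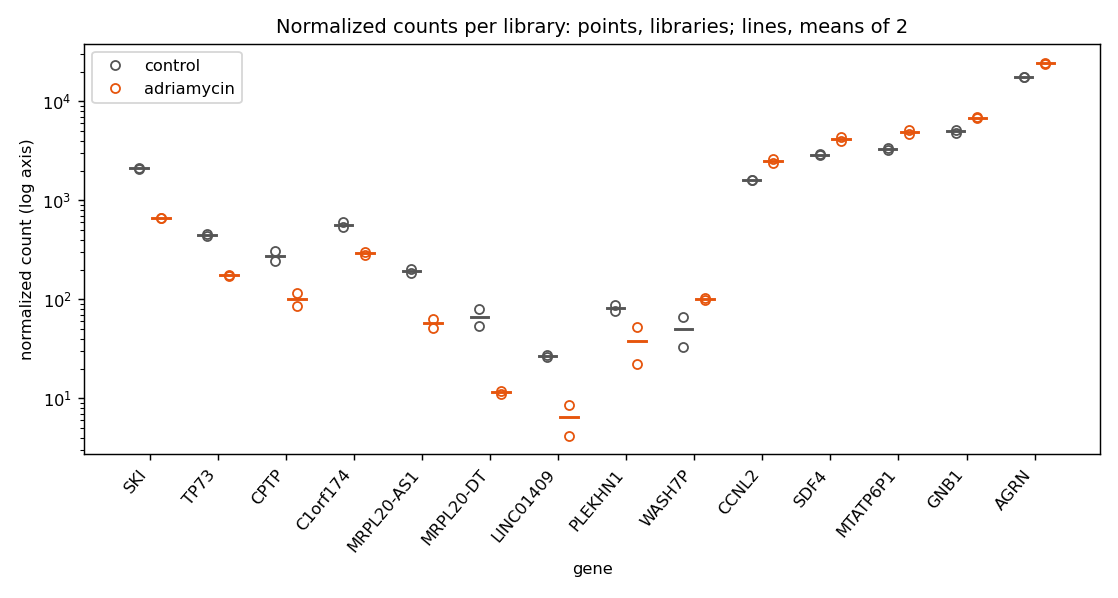
Normalized counts (log axis) of 14 genes in each of the 2 control and 2 adriamycin libraries, where circles are libraries and lines the means of 2. SKI and TP73 libraries lie almost on top of each other within a group, while the adriamycin libraries of PLEKHN1 and LINC01409 and the control libraries of WASH7P lie apart.

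Of 6 tested signalling genes 2 rose, 2 fell and 2 did not pass, with a median of −0.21. GNB1, the β subunit of heterotrimeric G proteins, was among the most counted genes here. It rose from 4801 and 5196 to 6761 and 6918 normalized counts (log2 fold change 0.45 ± 0.09, SE). ACAP3, an activator of ARF GTPase hydrolysis, rose by 0.39 ± 0.10 (SE). ARHGEF16 changed by −0.50 ± 0.17 (SE). PLEKHN1, a pleckstrin homology domain protein, had 76.2 and 88.3 normalized counts in control cells. Its adriamycin libraries disagreed, at 53.0 and 22.3, and the value of −1.07 ± 0.34 (SE) passed in 5 of 14 alternative settings, at −1.81 without adriamycin replicate 1 and −0.61 without adriamycin replicate 2. DVL1, a central adaptor of WNT signalling, and PRKCZ, an atypical protein kinase C, did not pass, at −0.18 ± 0.09 and −0.23 ± 0.12 (SE).

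All 6 tested RNA processing genes had a log2 fold change above 0, as did 43 of all 94 tested genes. SSU72 and PUSL1 lay below 0 with library size alone. Of the 6 genes 2 rose. The median of the list was 0.27, and it ran from 0.06 with library size alone to 0.47 with upper-quartile scaling. CCNL2 (ENSG00000221978, chr1:1385711-1399335), a cyclin L that partners CDK11 and regulates splicing, had 1626 and 1597 normalized counts in control cells and 2618 and 2414 with adriamycin. The groups did not overlap, as for 33% of all tested genes on the higher side. The level with adriamycin was 156% of the control level, with a log2 fold change of 0.64 ± 0.09 (SE, edgeR adjusted p = 8.86e-10). INTS11, the endonuclease of the Integrator complex, rose by 0.27 ± 0.09 (SE), the smallest change that passed. The kinase genes CDK11B (0.28 ± 0.10, SE) and CDK11A (0.56 ± 0.36) did not pass, and as near-identical copies they can exchange reads. The RNA polymerase II phosphatase SSU72 and the pseudouridine synthase PUSL1 were both at 0.04.

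Of 4 tested genes for mitochondrial proteins, MRPL20, a protein of the large mitochondrial ribosomal subunit, rose by 0.35 ± 0.09 (SE) and AURKAIP1, a protein of the small subunit, by 0.34 ± 0.09 (SE). The membrane ATPases ATAD3A (0.21 ± 0.09, SE) and ATAD3B (0.13 ± 0.09) did not pass, and both lay below 0 with library size alone. The stretch also holds pseudogenes that are copies of mitochondrial DNA inserted in the nuclear genome. MTATP6P1, a copy of the ATP synthase subunit 6 gene, rose from 3194 and 3384 to 4646 and 5157 normalized counts, a log2 fold change of 0.58 ± 0.09 (SE). MTCO1P12, a copy of the cytochrome oxidase subunit 1 gene, rose by 0.49 ± 0.11 (SE). MTND2P28, a copy of the NADH dehydrogenase subunit 2 gene, was at 3921 and 4488 normalized counts in control cells and at 3763 and 4353 after adriamycin, where the libraries of the groups overlapped. Reads of the mitochondrial genes themselves can be counted at such copies, and the setting for reads with several matches was not given in the sources used here. Per kb of exon, MTATP6P1 (4830 normalized counts per kb in control cells) and MTND2P28 (4027) exceeded AGRN (1645), the most counted gene of the stretch.

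Of 5 tested genes of the ubiquitin pathway, DNA repair and cell death 3 rose and 1 fell, against 19.1% in each direction over all tested genes. ISG15, an interferon-induced ubiquitin-like protein, rose from 214 and 236 to 360 and 320 normalized counts (log2 fold change 0.60 ± 0.14, SE). MIB2, a ubiquitin ligase of the Notch pathway, rose by 0.55 ± 0.13 (SE). FAAP20, a subunit of the Fanconi anaemia core complex that binds ubiquitin at DNA crosslinks, rose by 0.35 ± 0.09 (SE). UBE2J2, a ubiquitin-conjugating enzyme of the endoplasmic reticulum, fell from 999.8 and 1054 to 744 and 694 normalized counts (log2 fold change −0.51 ± 0.10, SE). DFFB, the nuclease that cuts DNA into fragments during apoptosis, was at −0.78 ± 0.35 (SE) and did not pass. The members that passed have different functions, and 1 of the 5 is a repair protein.

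In the list for endoplasmic reticulum, Golgi and peroxisome, 1 of 6 tested genes rose and 1 fell, and the median was 0.00, or −0.22 with library size alone. SDF4, a calcium-binding protein of the Golgi lumen, rose from 2954 and 2845 to 4335 and 3988 normalized counts (log2 fold change 0.52 ± 0.09, SE). B3GALT6, a galactosyltransferase that builds the linker of proteoglycans, had 201 and 276 normalized counts in control cells and 179.5 and 159.2 after adriamycin, and its change of −0.47 ± 0.16 (SE) passed in 3 of 14 alternative settings and was −0.24 without control replicate 2. Among 5 tested extracellular genes 2 rose. AGRN, the basement membrane proteoglycan agrin, went from 17843 and 17555 to 24658 and 24028 normalized counts (log2 fold change 0.46 ± 0.09, SE), and C1QTNF12, a secreted C1q/TNF family protein, rose by 0.83 ± 0.25 (SE). All 3 tested genes for surface receptors and channels lay above 0, as did 43 of all 94 tested genes. The values were 0.43 ± 0.63 (SE) for TNFRSF14, 0.68 ± 0.43 for GABRD and 0.94 ± 0.26 for the sodium channel subunit SCNN1D. SCNN1D was the one that rose. TNFRSF14 was scarce, with 10 and 8 raw counts in control cells and 10 and 9 after adriamycin.

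None of 5 tested genes of the cytoskeleton, cilia and centrosome passed in edgeR's quasi-likelihood test, 2 had an unadjusted p under 0.05 and none passed in the DESeq2 test, and their median was −0.28. WRAP73, a centrosomal WD repeat protein, was at −0.28 ± 0.11 (SE) and the actin-binding KLHL17 at −0.13 ± 0.10 (SE), or at 0.06 with upper-quartile scaling. Of 6 tested coding genes with little known function, C1orf174 (−0.96 ± 0.12, SE), TPRG1L (−0.77 ± 0.18), known from synaptic vesicles, and LRRC47 (−0.36 ± 0.10) fell. By DESeq2, 2 of the 6 passed as lower, and 4 were lower at an unadjusted p under 0.05. None rose by edgeR, by DESeq2 or at that unadjusted p. C1orf174 had 606 and 533 normalized counts in control cells and 303 and 282 after adriamycin, 51.3% of the control level.

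**Figure D3:**
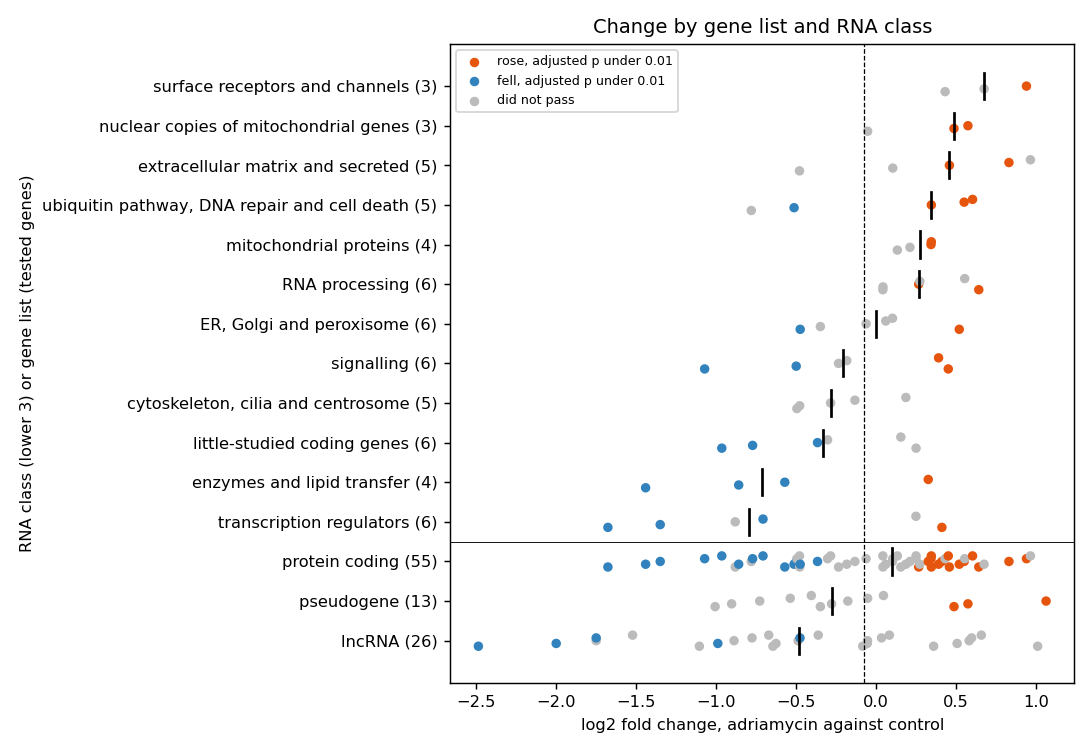
Log2 fold change of each tested gene by gene list and by RNA class, with the number of tested genes in brackets, orange for genes that rose, blue for genes that fell and grey for those that did not pass. Black bars are medians and the dashed line is the median of all tested genes, −0.07. The transcription regulators (−0.79) and the enzymes (−0.71) have the lowest medians, and no lncRNA gene is orange.

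Long non-coding RNA (lncRNA) genes held no member that rose. Of 81 listed lncRNA genes 26 were tested and 5 fell, a share close to the 19.1% that fell among all tested genes, and 18 lay below 0, with a median of −0.48 that stayed below 0 under each scaling (−0.70 to −0.28). None rose by edgeR, by DESeq2 or at an unadjusted p under 0.05, and 9 were lower at that unadjusted p. By comparison 15 of 55 tested protein-coding genes rose and 13 fell, and their median was 0.10, or −0.11 with library size alone. The lncRNA genes also had far fewer counts, at a median of 22.3 normalized counts in control cells against 448 for the coding genes. Whatever the class, 1 of the 31 genes with the lowest levels rose and 1 fell. Over all 81 listed lncRNA genes, tested or not, the share of the counts of the 220 genes was 3.46% (95% Wilson interval 3.34 to 3.58%) and 3.45% (3.31 to 3.59%) in the control libraries and 2.25% (2.15 to 2.35%) and 2.26% (2.15 to 2.39%) in the adriamycin libraries. These intervals cover counting error only. With 2 libraries against 2, an exact permutation test cannot go below 0.333, so no test of the shares was made. The share of AGRN, which enters the same total, was 24.6% and 23.9% in the control libraries and 28.6% and 29.0% in the adriamycin libraries.

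The lncRNA genes that fell were MRPL20-DT, LINC01409, MRPL20-AS1, ENSG00000284703 and LINC01128. MRPL20-DT (ENSG00000272455, chr1:1409096-1410618) had 66 and 69 raw counts in the control libraries and 11 and 8 after adriamycin, which left 17.9% of the control level by normalized counts. Its log2 fold change of −2.48 ± 0.43 (SE) was the lowest of all tested genes. The name marks it as divergent from MRPL20, and by the GENCODE annotation its start lies 1803 bp from that of MRPL20, which rose. LINC01409 had 34 and 23 raw counts in control cells and 8 and 3 after adriamycin (−1.998 ± 0.56, SE), and it overlaps other genes on both strands. ENSG00000284703, with 177 and 195 normalized counts in control cells and 98.4 and 88.0 after adriamycin, was at −0.99 ± 0.21 (SE). LINC01128 went from 518 and 528 to 375 and 377 normalized counts. LINC02780, the most counted lncRNA gene, was at 765 and 795 normalized counts in control cells and at 771 and 729 after adriamycin, and these libraries overlapped. Without LINC02780, lncRNA genes held 2.40% and 2.37% of the counts in the control libraries and 1.36% and 1.38% in the adriamycin libraries.

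Of 42 listed pseudogenes 13 were tested, and 3 rose, a share not far from the 19.1% that rose among all tested genes. None fell, against 19.1% of all tested genes, yet 9 of the 13 lay below 0 and the median was −0.28. At an unadjusted p under 0.05, 2 pseudogenes were lower, and none was by DESeq2. The genes that rose were MTATP6P1, MTCO1P12 and WASH7P. WASH7P, one of several near-identical copies of the WASH complex gene at chromosome ends, had 33.2 and 66.5 normalized counts in the control libraries and 103 and 99.2 after adriamycin. The control libraries were further apart than the adriamycin libraries, and the log2 fold change of 1.06 ± 0.30 (SE) passed in 7 of 14 alternative settings, at 0.64 without control replicate 1 and 1.599 without control replicate 2. WASH9P, another copy, was at −0.28 ± 0.19 (SE). Libraries were made from RNA bound to poly-T beads, and of 18 listed small RNA genes 4 had a count and none was tested.

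The 126 genes left untested were scarce, with at most 15 counts in any of the 4 libraries. Of these, 58 had no count in the 4 libraries, 35 had counts in both groups, 17 in control cells alone and 16 in adriamycin-treated cells alone. A count of 0 allows up to 3 counts in a library, so no direction is given for these genes. As instances chosen after their values were seen, the receptor gene TNFRSF18 had 1 and 0 counts in control cells and 11 and 1 after adriamycin. The lncRNA gene ENSG00000287828 had 15 and 5 counts in control cells and 1 and 3 after adriamycin.

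The stretch is dense with genes, and neighbours that share a start region were set side by side. Genes in head-to-head pairs are read in opposite directions from start sites close to each other, often out of a common CpG-rich promoter. Start sites here are the gene ends of the GENCODE annotation. Of 11 tested pairs with start sites within 1 kb, 5 had the same sign and 6 opposite signs. In 3 pairs both genes passed, and in all 3 one rose and the other fell. CPTP fell by 1.44 on the log2 scale while INTS11, whose start lies 69 bp away, rose by 0.27. MRPL20-AS1 fell by 1.75 while CCNL2, 180 bp away, rose by 0.64. B3GALT6 fell by 0.47 while SDF4, 206 bp away, rose by 0.52. Each of these 6 genes kept its sign under the 4 scalings, but INTS11 passed in 7 of 14 alternative settings and B3GALT6 in 3. In other pairs both members were lower and 1 passed, as for TP73 with WRAP73 (−1.35 and −0.28) and C1orf174 with LINC01134 (−0.96 and −1.75). TP73 and WRAP73 are within 1 kb by GENCODE only. Their RefSeq promoter windows, at chr1:3652266-3652565 for the first TP73 start and chr1:3650054-3650353 for WRAP73, lie further apart. The plus-strand gene was the lower one in each of the 3 pairs in which both genes passed. Over the whole stretch, too, most genes that fell lie on the plus strand and most that rose on the minus strand. The strand is thus not particular to the pairs.

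MRPL20-AS1 (ENSG00000224870) was the lncRNA gene with the smallest p. It lies on the plus strand at chr1:1399515-1402046, starts near CCNL2 and runs into MRPL20, with which it shares 138 bp of exon on opposite strands. Its libraries stood at 203 and 184 normalized counts in control cells and at 62.7 and 51.7 after adriamycin, 29.8% of the control level, while both neighbours rose. Its log2 fold change of −1.75 ± 0.21 (SE) had an adjusted p of 3.43e-12 in the same edgeR fit. Of 16 tested pairs with overlapping exons on opposite strands, 7 had the same sign and 9 opposite signs. Both genes passed in 2 of these, again with opposite directions, SAMD11 (fell) with NOC2L (rose), which share 373 bp, and MRPL20-AS1 with MRPL20. NOC2L passed in 10 of 14 alternative settings and MRPL20 in 7, with an edgeR adjusted p for MRPL20 of 0.24 with library size alone. The labels name no step that marks the strand, and no strand option of the counting was given in the sources used here, so reads within such overlaps cannot be assigned to a strand.

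**Figure D4:**
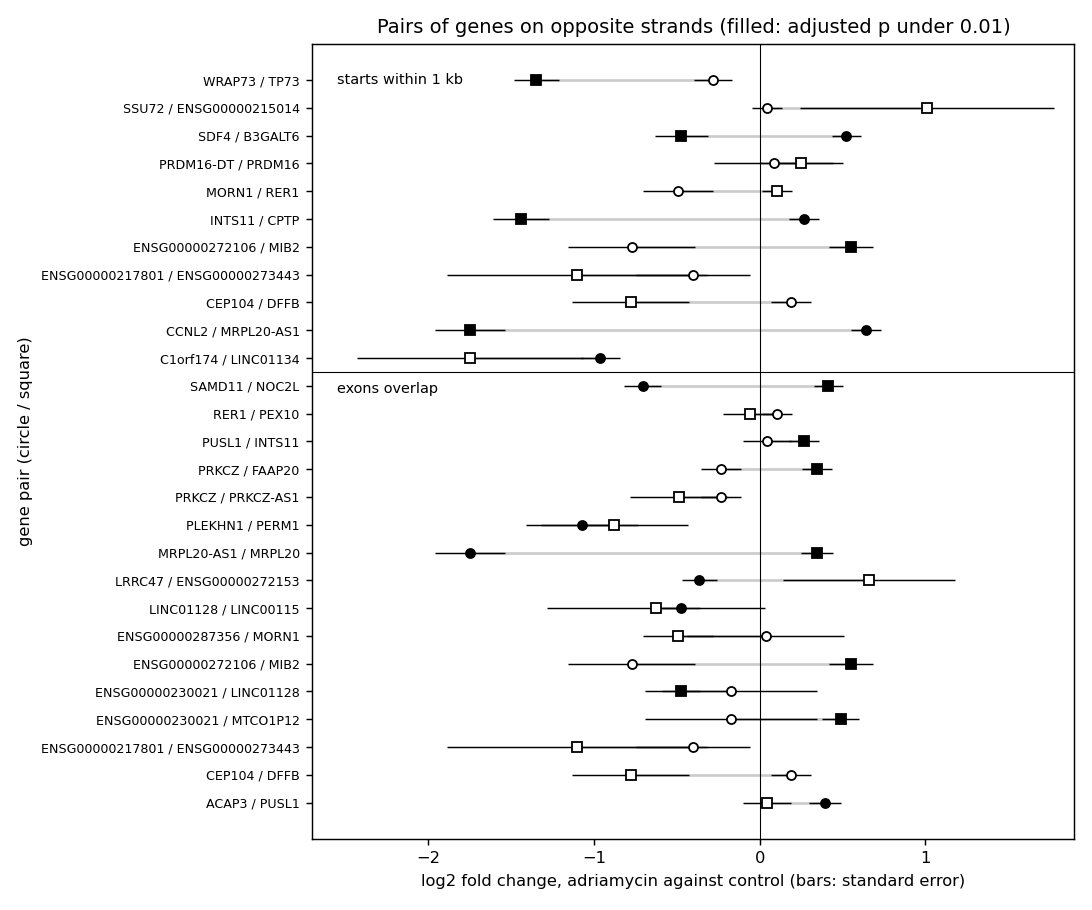
Log2 fold change with adriamycin (bars, standard error) of both members of each tested pair on opposite strands, with the first gene as a circle and the second as a square, filled where adjusted p was under 0.01. The upper 11 pairs have start sites within 1 kb and the lower 16 have overlapping exons, with 3 pairs in both sets. In no pair do 2 filled symbols lie on the same side of 0.

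The shared start regions are shown because these pairs carry opposite changes within 1 window. Each window is the RefSeq promoter window of the plus-strand gene on GRCh38.p14, from 250 bases before its start to 50 bases from the start on, and holds the start of the minus-strand gene too. It is printed along the plus strand, and capitals mark GC boxes, the letters GGGCGG or their reverse complement CCGCCC, with overlapping matches counted separately. The plus-strand gene starts at position 251 of each window. By RefSeq, INTS11 starts at position 109 of the CPTP window, CCNL2 at position 56 of the MRPL20-AS1 window and SDF4 at position 15 of the B3GALT6 window. These starts lie 142, 195 and 236 bases apart, against 69, 180 and 206 bp by GENCODE, because the annotations place them differently.
CPTP and INTS11 (chr1:1324552-1324851): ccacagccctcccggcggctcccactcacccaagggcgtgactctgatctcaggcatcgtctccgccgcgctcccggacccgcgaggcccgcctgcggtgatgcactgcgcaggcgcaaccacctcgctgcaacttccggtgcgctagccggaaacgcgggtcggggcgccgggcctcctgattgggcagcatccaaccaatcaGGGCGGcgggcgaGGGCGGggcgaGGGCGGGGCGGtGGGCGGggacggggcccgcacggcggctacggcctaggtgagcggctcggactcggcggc
MRPL20-AS1 and CCNL2 (chr1:1399280-1399579): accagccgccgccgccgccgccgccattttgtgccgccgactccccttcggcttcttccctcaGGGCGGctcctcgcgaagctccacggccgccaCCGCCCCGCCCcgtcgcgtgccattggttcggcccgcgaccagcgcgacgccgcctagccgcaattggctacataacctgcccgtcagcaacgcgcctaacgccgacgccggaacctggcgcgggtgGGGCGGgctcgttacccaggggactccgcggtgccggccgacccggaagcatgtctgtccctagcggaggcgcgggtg
B3GALT6 and SDF4 (chr1:1231987-1232286): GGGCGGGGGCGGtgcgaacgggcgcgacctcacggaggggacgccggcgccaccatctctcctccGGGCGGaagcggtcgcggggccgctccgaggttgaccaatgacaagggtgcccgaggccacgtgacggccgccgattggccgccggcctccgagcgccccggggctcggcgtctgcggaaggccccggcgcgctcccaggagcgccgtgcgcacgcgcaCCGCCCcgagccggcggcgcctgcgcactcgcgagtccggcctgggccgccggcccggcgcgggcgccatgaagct
The windows hold 5, 4 and 4 GC boxes and 40, 46 and 53 CpG dinucleotides, and each has 2 CCAAT motifs on either strand. TP73, without a partner that passed, is shown for contrast at its first start, with 3 GC boxes and 49 CpG dinucleotides.
TP73 (chr1:3652266-3652565, plus strand): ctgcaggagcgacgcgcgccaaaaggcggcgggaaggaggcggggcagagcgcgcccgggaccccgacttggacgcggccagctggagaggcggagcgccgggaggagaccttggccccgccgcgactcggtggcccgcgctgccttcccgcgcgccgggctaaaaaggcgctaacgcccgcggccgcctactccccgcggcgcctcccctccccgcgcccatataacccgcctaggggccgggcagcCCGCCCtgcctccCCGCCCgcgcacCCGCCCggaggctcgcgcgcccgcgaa
Across the tested genes 64 promoter windows were found in the table, and 67.2% of them held a GC box on either strand, against 45.0% of all 35116 windows of the table. The share was 68.8% of 16 windows of genes that rose and 76.5% of 17 windows of genes that fell. Windows are not genes, since some genes, such as NADK and TP73, have several. The head-to-head pairs put largely the same bases in both groups, so no difference is read from these shares. TATAAA was found in 3.1% of the 64 windows and in 11.5% of all windows, and CCAAT in 34.4% and 34.6%. A match describes letters and is not evidence of a bound factor. SKI, MRPL20-DT, WASH7P and AGRN had no window in the table.

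Gene length, base composition and level were set against the change. Across the 94 tested genes, which share libraries and are not independent, Spearman's rank correlation with the log2 fold change was −0.02 for gene length, −0.01 for exon length, 0.13 for exon GC content and 0.12 for the control level. By level, 13 genes rose and 7 fell among the 31 most counted genes, and 4 rose and 10 fell among the 32 of middle level. Among the 31 genes of middle exon length 3 rose and 12 fell, while among the 32 of middle gene length 10 rose and 5 fell. Among the 18 coding genes of middle exon length 4 rose and 6 fell. Along the chromosome, 35 pairs of neighbours could be formed from the 36 genes that passed, and 20 of these had the same direction and 15 opposite directions.

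All 36 genes kept their sign under the 4 scalings, and 3 that rose and 12 that fell passed under each. CCNL2, MTATP6P1 and SDF4 rose, and C1orf174, PRXL2B, SAMD11, UBE2J2, ENSG00000284703, SKI, TP73, CPTP and the lncRNA genes MRPL20-AS1 and MRPL20-DT fell by the test described and in every one of the 14 alternative settings that tested them. Of these 13 genes, the 5 named last also stayed past 1 on the log2 scale throughout. GNB1 passed in 13 of the 14 alternatives, AGRN in 12, NOC2L and ISG15 in 10, and SCNN1D in 8, while LRRC47 passed in 4 and ARHGEF16 in 2. LINC01409 passed the thresholds in none of the 6 fits that left out a library, PLEKHN1 in 1 of them and WASH7P in 1. When only the 4 control and adriamycin libraries were fitted, 8 of the genes that rose and 11 of those that fell passed.

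**Figure D5:**
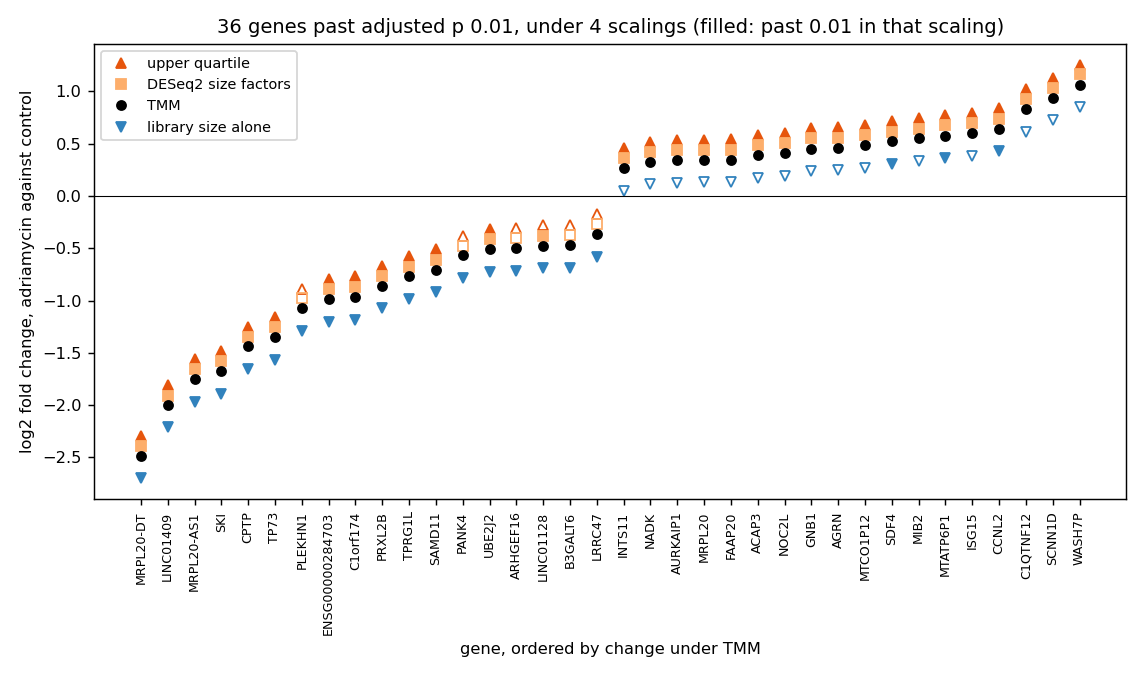
Log2 fold change of the 36 genes past an adjusted p of 0.01 under 4 scalings, ordered by their value under TMM, with filled symbols where the gene also passed in that scaling. Each scaling moves all genes by nearly the same amount and none across 0, while under library size alone 3 of the 18 genes that rose remain filled.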

How the data were processed

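RNA-Seq libraries of U2OS cells were grouped by their labels. The authors selected poly-A RNA, generated paired-end reads of 150 bp, aligned them to GRCh38 with HISAT2 2.1.0, counted them per Ensembl gene with featureCounts of Subread 2.0.0 and deposited raw counts. They used DESeq2 1.30.1 for their own tests. Counts were used as deposited, for the 220 genes with a full line in every library, and the incomplete last line of each control and adriamycin library was left out.

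The quasi-likelihood test of edgeR 4.0.16, run in R 4.3.3, was fitted once to all 6 libraries. Scarce genes were first removed from the 220 by edgeR's default rule, and library sizes and TMM factors came from the 94 that remained. The replicate number was not a term, and p-values were adjusted over the 94 genes after Benjamini and Hochberg. The thresholds were an adjusted p of 0.01 and, for a call, a change over 1 on the log2 scale. To give normalized counts, each count was divided by its library's TMM-scaled size over the geometric mean size, and these values are comparable between genes only per kb of exon. The common biological coefficient of variation was 7.51%. A binomial comparison separated 24% and 28% of 75 genes between the replicates of the control and adriamycin groups, so the replicates differ by more than sampling noise. All fold changes of the main fit are relative to the 94 tested genes. Alternatives were library size alone, upper-quartile scaling, DESeq2 size factors, the test of DESeq2 1.42.0, 2 other filters, a fit of the 4 compared libraries, a replicate block, a threshold of 0.05 and leaving out each library. On simulated data with 20 of 94 genes changed by 2 on the log2 scale in each of 10 sets, 187 of 198 tested changed genes (94.4%) were called, and 0 of 723 unchanged genes. Equal numbers were raised and lowered, and both thresholds were applied. The simulation therefore does not cover smaller changes, genes that passed the adjusted p alone, or an unequal split of directions.

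Symbols, coordinates and RNA classes are from GENCODE release 44. The 12 gene lists group genes by known function. Named by rule were the called genes, the 5 higher and 5 lower genes with the smallest p and no overlap between groups, the gene with the smallest p and the most abundant gene of each list and class, and partners of called genes. All other genes, among them the remaining ones with an adjusted p under 0.01, were named after their values were seen. The genes and lists were chosen with earlier results of these data known. Tables were made with Python 3.11.15, pandas 2.3.3 and scipy 1.17.1.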

Additional observations from a re-analysis of the deposited data

How the results depend on the processing

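Of 29 genes named by rule, 404 log2 fold changes were recomputed under the alternatives, of which 310 kept their direction and side of the threshold, 80 no longer passed, 3 newly passed and 11 changed sign. The sign changed in genes that had not passed, namely KLHL17 (0.0643 with upper-quartile scaling), ATAD3B (−0.0827 with library size alone), MTND2P28 and LINC02780 (0.0509 and 0.0413 with DESeq2's size factors, 0.0509 and 0.0414 with its test, 0.15 and 0.14 with upper-quartile scaling), and when a library was left out MTND2P28 ranged from −0.14 to 0.11 and LINC02780 from −0.0465 to 0.0023. The 1 gene called higher became 2 with DESeq2's size factors or test, 4 with upper-quartile scaling, 0 when scaled by library size alone, 0 with the 4 compared libraries and 0 to 2 when a library was left out. The 7 called lower became 10 with library size alone and 5 to 7 when a library was left out. At an adjusted p under 0.01 alone, the 18 higher genes became 3 with library size alone, 8 with the 4 compared libraries and 5 to 15 when a library was left out, with 5 without etoposide replicate 1, 6 without adriamycin replicate 1, 8 without either control replicate and 9 without etoposide replicate 2. The 18 lower genes became 11 with the 4 compared libraries and 10 to 12 when a library was left out, with 10 without adriamycin replicate 2 and 11 without control replicate 2 or either etoposide replicate. Fewer libraries leave fewer residual degrees of freedom, and where 1 library remained in a group its spread was taken from the other groups. Otherwise the cause was not tested.

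The deviations of same-numbered control and adriamycin libraries correlated at 0.035 over 75 genes, so no pairing by number was seen. Counting noise lowers such a correlation, so it cannot tell whether same-numbered libraries were prepared together, and the labels do not say. With the replicate block the 8 called genes were the same, and 18 genes were higher and 16 lower at an adjusted p under 0.01.

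Genes with few counts, such as LINC01409 (3 to 34 counts a library), limit what these libraries can show. Every scaling rests only on the genes kept in that fit, all of them among the 220.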
